A study of Arabidopsis thaliana with 8 samples.

Results

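The WRKY family of transcription factors was examined in leaves of ABI3:MTA (mta) and wild-type (WT) Arabidopsis thaliana. The members were 60 genes taken by a fixed list of gene identifiers, out of 20690 genes listed in at least 1 of the 8 libraries. MTA is the catalytic subunit of the enzyme complex that writes N6-methyladenosine into mRNA. Poly(A) RNA came from leaves 5 to 9 of plants 4 weeks old, of the Col-0 accession, grown in soil, and strand-specific libraries were made from it. The mta group held 4 libraries from plants in which MTA is expressed from the ABI3 promoter, a promoter known for activity in embryos, and the WT group held 4 libraries from plants with the normal gene. The labels name no treatment of either group. As background, ABI3:MTA carries a loss-of-function mta mutant past embryo development, and is used as a line with little of the writer in adult leaves. Gene-level values cannot tell the ABI3-driven copy from the resident MTA locus. Neither separate plants nor the number of transformed lines behind the libraries is given by the labels, so the p-values reflect only how these libraries vary, and that variation may be technical.

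WRKY proteins share a DNA-binding domain built around a conserved run of amino acids and a zinc finger, and bind a promoter element called the W box. Many WRKY genes are themselves switched on within minutes to hours of pathogen contact or salicylic acid, and WRKY promoters often hold W boxes, and members can regulate one another. Some members activate immunity, others repress it, and further ones act in leaf senescence, phosphate supply or development. The family is divided into subfamilies I, IIa to IIe and III by the number of domains, the zinc finger and overall similarity.

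The coding sequences show this division. In the RefSeq annotation of TAIR10.1, all 60 members matched by gene identifier, and 11 of the 13 subfamily I members coded for 2 copies of the conserved 7-residue run, while all members of the other subfamilies coded for 1. The subfamily I exceptions were WRKY10 and WRKY19, with 1 copy each. The zinc finger that ends in histidine and cysteine was found in 9 of 10 subfamily III members, WRKY52 (RRS1) being the exception, and the finger that ends in 2 histidines in all members of subfamilies I and II. The run departed from its usual form in 2 members, WRKY50 and WRKY51. The coding bases of the run are shown for both copies of WRKY33, for 1 gene each of subfamilies IIa and III, and for those 2 members, with the codon for the differing residue, the sixth, in capitals.
WRKY33 copy 1: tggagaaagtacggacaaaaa
WRKY33 copy 2: tggagaaaatacggccagaaa
WRKY40: tggaggaaatatggacagaaa
WRKY70: tggaggaaatatggacaaaag
WRKY50: tggagaaagtatgggAAGaag
WRKY51: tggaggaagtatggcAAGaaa

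Promoters were read for the same 60 genes as the 250 bases before the annotated gene start, and searched for the W box in the forms TTGACC and TTGACT on both strands. At least 1 match was found in 22 of 60 WRKY promoters (36.7%), against 28.4% of 27431 promoters of all protein-coding genes of the nuclear chromosomes. At least 2 matches were found in 10 (16.7%), against 6.18%. Windows that overlap another gene were kept in these shares. Among those with matches, the windows of WRKY19, WRKY25, WRKY26, WRKY45 and WRKY52 overlap an annotated exon of another gene. A match is a description of these letters and no binding site. The sequences are shown for WRKY33, WRKY29 and WRKY17, which hold 2 matches each and changed in different directions between the genotypes, and for WRKY40 and WRKY60, which hold none and moved in opposite directions. Each is written 5′ to 3′ on the coding strand, with matches in capitals, and none overlaps an annotated exon of another gene.
WRKY33 promoter, chr2:16107985-16108234, plus strand: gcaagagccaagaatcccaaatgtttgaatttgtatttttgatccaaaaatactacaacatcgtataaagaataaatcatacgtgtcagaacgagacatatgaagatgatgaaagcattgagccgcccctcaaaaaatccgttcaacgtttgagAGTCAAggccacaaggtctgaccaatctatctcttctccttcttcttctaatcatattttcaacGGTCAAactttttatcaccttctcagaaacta
WRKY29 promoter, chr4:12291382-12291631, plus strand: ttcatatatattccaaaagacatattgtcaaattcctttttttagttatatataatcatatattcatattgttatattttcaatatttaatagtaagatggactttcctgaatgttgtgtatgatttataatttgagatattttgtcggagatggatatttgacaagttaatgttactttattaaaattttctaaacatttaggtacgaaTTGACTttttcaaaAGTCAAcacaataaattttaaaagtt
WRKY17 promoter, chr2:10439470-10439719, minus strand: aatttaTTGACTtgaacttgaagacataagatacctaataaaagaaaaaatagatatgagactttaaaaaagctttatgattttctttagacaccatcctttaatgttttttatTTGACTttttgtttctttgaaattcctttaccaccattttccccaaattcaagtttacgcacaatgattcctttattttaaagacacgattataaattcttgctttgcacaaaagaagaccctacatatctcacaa
WRKY40 promoter, chr1:30383311-30383560, plus strand: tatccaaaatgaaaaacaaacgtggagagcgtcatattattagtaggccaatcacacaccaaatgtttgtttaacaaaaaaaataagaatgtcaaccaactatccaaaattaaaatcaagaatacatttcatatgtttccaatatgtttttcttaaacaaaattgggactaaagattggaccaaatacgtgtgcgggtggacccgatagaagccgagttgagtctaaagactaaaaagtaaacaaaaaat
WRKY60 promoter, chr2:10629412-10629661, plus strand: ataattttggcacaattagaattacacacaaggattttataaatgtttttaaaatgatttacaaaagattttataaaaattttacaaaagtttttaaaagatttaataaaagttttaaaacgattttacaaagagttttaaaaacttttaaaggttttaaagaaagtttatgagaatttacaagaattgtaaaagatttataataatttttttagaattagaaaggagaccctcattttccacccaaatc

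Levels below are normalised read counts, the deposited values rescaled to a common size across libraries (the deposited values of a library were whole multiples of 1 step, within a tolerance of 0.02 steps plus rounding, and 1 unit held 2.73 to 3.98 steps). The libraries listed 19204 to 19716 genes and held 17132896 to 25377346 steps in genes, the only measure of depth that the files give. MTA itself was lower in mta, at 41.0, 61.3, 59.2 and 42.7 in mta 1 to mta 4, against 66.0, 84.7, 70.5 and 68.8 in WT 1 to WT 4. No mta library reached the lowest WT library, the log2 fold change was -0.52 (SE 0.155, limma adjusted p = 0.0312), and the call was lost without mta 1, WT 2, WT 3 or WT 4 (adjusted p of 0.0536 to 0.0944). The MTA call was also lost with upper-quartile factors (adjusted p = 0.0532) and with WT 2 and WT 3 averaged as 1 sample (adjusted p = 0.0737). Without WT 1, mta 1 and mta 4 together the MTA change was -0.29 (adjusted p = 0.0611). ABI3 was not listed in any library. The second principal component set WT 1 and mta 1 against mta 4. It held 26.2% of the variance, and longer transcripts had lower loadings on it (Spearman's rho of loading and length = -0.56, a description over 18266 genes of the same 8 libraries). Marker lists of leaf cell types held called genes in both directions (beside 13.3% of all tested genes higher and 13.1% lower), with 2 of 5 mesophyll markers higher, 2 of 5 guard cell markers higher and 1 lower, 1 higher and 1 lower among the 5 markers of vasculature and of epidermis, and 0 of 2 tested trichome markers called. With the authors' scaling FAMA and MYB60 of guard cells and SUC2 of the vasculature were not called (adjusted p = 0.119, 0.198 and 0.0549), and FDH and CER5 of the epidermis were called lower (adjusted p = 0.016 and 0.0125). The MYB60 and SUC2 calls were each lost in 6 of the 8 fits without 1 library. That of GC1, the lower guard cell marker, was lost without mta 2 or WT 4 (adjusted p of 0.07 to 0.0766). It was also lost with upper-quartile factors (adjusted p = 0.0533), and that of FAMA without mta 3 (adjusted p = 0.0519). LHCB2.1 and RCA of the mesophyll did not pass (adjusted p = 0.0648 and 0.0645). Both passed as higher in several other fits, such as without mta 4 or WT 1 (adjusted p of 0.0173 to 0.04). The summed level of 5 mesophyll markers was 285121 to 485491 in mta and 214095 to 256141 in WT, that of 5 vascular markers 1371 to 1648 in mta and 1193 to 1308 in WT, and that of 5 epidermal markers 2487 to 3072 in mta and 3141 to 3238 in WT. Few abundant genes carried most of these sums. RBCS1A averaged 251944 in mta and 134812 in WT, and SUC2 1133 in mta and 895 in WT. FDH (1218 in mta, 1352 in WT) and CER5 (904 in mta, 1026 in WT) led the epidermal sum. Against the direction of their sums, ATHB8 of the vasculature was called lower and PDF1 of the epidermis higher. The 5 guard cell markers summed to 385 to 523 in mta and 345 to 389.8 in WT, overlapping, and the 5 trichome markers to 12.6 to 19.1 in mta and 11.4 to 21.0 in WT, with GL1 at 0 in all libraries. The part of cell type in the changes of the WRKY genes was not tested, and fewer cells of a type cannot be told apart from less RNA per cell.

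Of the 60 members, 55 were listed in at least 1 library and 52 passed the filter on low values, which asked 4 or more libraries for a deposited value of 3 or more. WRKY9, WRKY10, WRKY24, WRKY34 and WRKY56 were listed in no library, and unlisted genes lie below a deposited value of 1. As background, WRKY10 acts in the endosperm and WRKY34 in pollen. WRKY14, WRKY35 and WRKY74 were listed in 6, 6 and 1 libraries and did not pass the filter.

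The family changed in both directions. Of the 52 tested members, 11 were higher and 7 lower in mta and 34 did not pass the test (limma, adjusted p at 0.05 over all 18328 genes). The called share was 34.6%, against 26.4% of all tested genes. Members higher in mta made up 21.2%, against 13.3% of all genes, and members lower made up 13.5%, against 13.1%. The median log2 fold change was -0.00 over the tested members and -0.02 over all genes, with 26 members above 0 and 26 below. Changes of at least 2-fold were rare: WRKY45 and WRKY60 were at least 2-fold higher (3.14% of all genes) and WRKY40 at least 2-fold lower (1.22% of all genes). The genotypes did not overlap for 19 of the 52 members, beside 28.4% of all tested genes.

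The number of members lower in mta depended on single libraries. It was 13 without WT 1, 4 without WT 2 and 4 without WT 3. Beside these, 2800, 1686 and 1680 of all genes were lower (of 18221 to 18250 tested), against 2406 with all libraries. The number higher was 9 to 14 without any 1 library, beside 1532 to 3141 of all genes. Without WT 1, mta 1 and mta 4 together, 17 members were higher and 16 lower of 51 tested, beside 3885 and 4407 of all 17880 genes tested. Of the 18 called members, 13 were called under each of 22 alternative settings, 9 of them higher and 4 lower. The 5 that lost the call under some setting were WRKY50 and WRKY54, which were higher, and WRKY4, WRKY7 and WRKY18, which were lower. With WT 2 and WT 3 averaged as 1 sample, the calls of WRKY4, WRKY7, WRKY18 and WRKY50 were lost (adjusted p of 0.0503 to 0.0975). With the authors' scaling alone, which moved the median of all genes to -0.16, 9 members were higher and 9 lower. Of all 18328 genes tested, 1671 were higher and 4249 lower under that scaling.

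**Figure D1:**
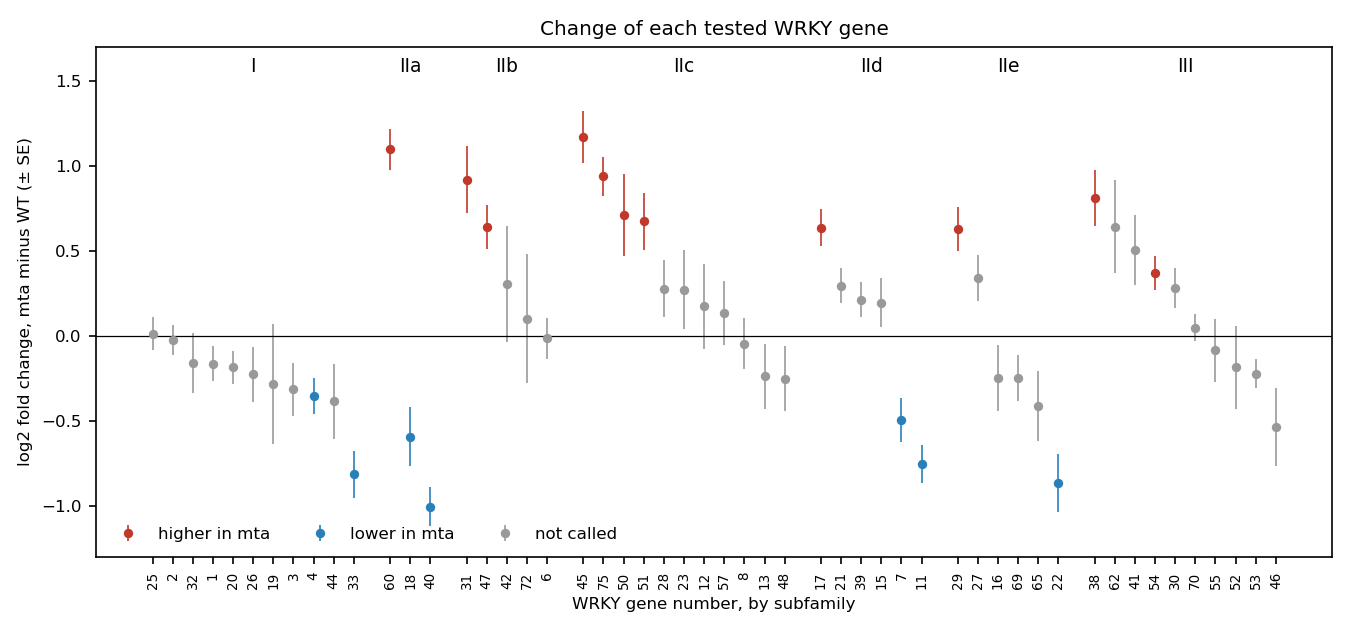
Difference between genotypes as log2 fold change, mta minus WT, of each of the 52 tested WRKY genes, grouped by subfamily, with standard errors; n = 4 libraries per genotype. Subfamily I holds no gene called higher, and subfamilies IIb, IIc and III hold none called lower, beside 13.3% of all tested genes higher and 13.1% lower.

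The most abundant members per transcript length were WRKY15 and WRKY33. WRKY15, linked to growth under oxidative and salt stress, had 716 to 1158 normalised counts per kilobase in mta libraries and 836 to 929 in WT libraries. WRKY33 had 721 to 954 per kilobase in mta and 1126 to 1641 in WT, so it stood below WRKY15 in the mean order in mta (837 against 1025, with libraries overlapping) and above it in WT (1482 against 879, with no overlap). WRKY53 had rank 3 in both genotypes, at a mean of 458 per kilobase in mta and 534 in WT. WRKY60 moved up the order of means, at rank 10 in mta and rank 19 in WT, and WRKY40 down, at rank 8 in mta and rank 4 in WT. The sum over the 60 members was 5811 to 6539 per kilobase in mta and 6321 to 7474 in WT. WRKY33 alone held 12.4 to 14.6% of that sum in mta and 17.8 to 22.2% in WT, and WRKY40 held 3.01 to 4.81% in mta and 6.16 to 6.82% in WT.

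**Figure D2:**
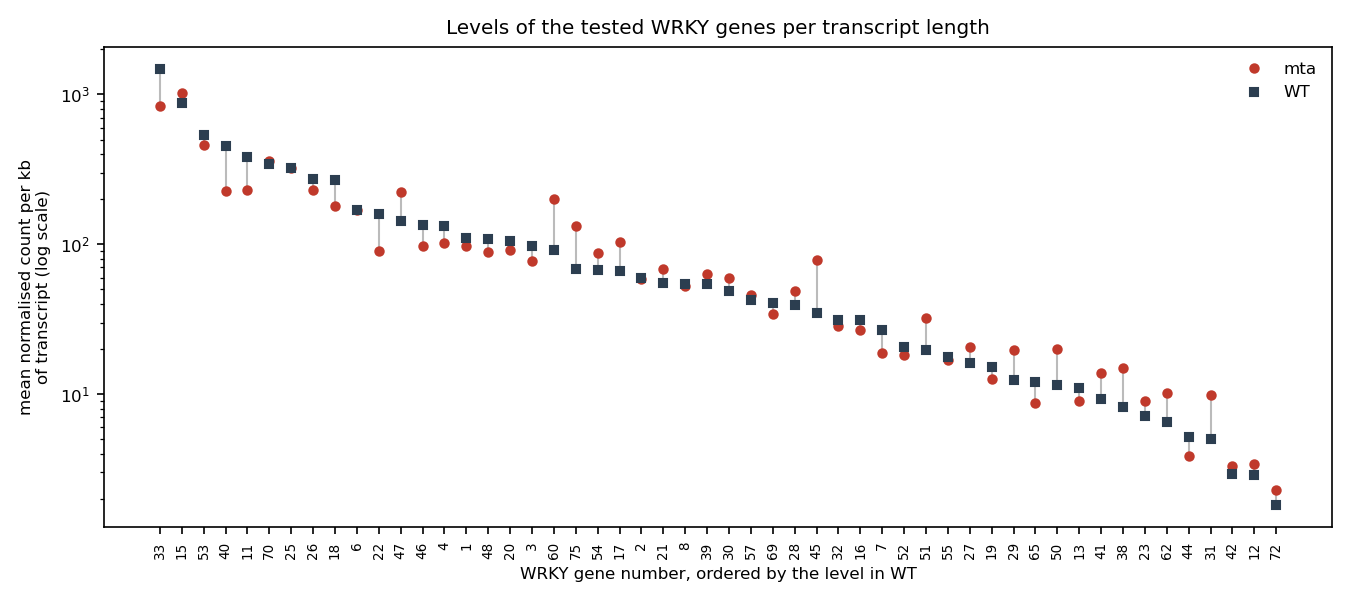
Mean normalised read count per kilobase of transcript (log axis) for the 52 tested WRKY genes in mta (circles) and WT (squares), ordered by the level in WT; each mean is over 4 libraries and grey lines join the genotypes. WRKY33, WRKY40 and WRKY11 stand lower in mta among the abundant members, and WRKY60, WRKY75 and WRKY45 higher further down the order.

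All 3 members of subfamily IIa changed, beside 26.4% of all tested genes, and not in the same direction. WRKY18 (AT4G31800), WRKY40 (AT1G80840) and WRKY60 (AT2G25000) bind one another and act mainly as repressors of immune and abscisic acid responses. WRKY60 had 237, 298, 296 and 354 in mta 1 to mta 4, against 137, 142, 141 and 127 in WT 1 to WT 4. It was higher in every mta library than in any WT library, with a log2 fold change of 1.10 (SE 0.120, limma adjusted p = 0.000105). WRKY40 had 275, 299.8, 255 and 370.1 in mta 1 to mta 4, against 571, 623, 606 and 589 in WT 1 to WT 4, a change of -1.00 (SE 0.115, limma adjusted p = 0.000145). Again the genotypes did not overlap, with mta 4 the highest of the mta libraries. WRKY18 had 269, 289.8, 254 and 444 in mta 1 to mta 4, against 387, 519, 517 and 438 in WT 1 to WT 4, a change of -0.59 (SE 0.172, limma adjusted p = 0.027). Here mta 4 lay above WT 1 and WT 4, while the other mta libraries lay below all WT libraries. Without mta 4 the change was -0.77 (adjusted p = 0.000536), and the call was lost without mta 1, mta 2, mta 3, WT 2, WT 3 or WT 4 (adjusted p of 0.0544 to 0.0768). Per kilobase of transcript, mean WRKY40 was 226 and mean WRKY60 199 in mta, against 451 and 91.8 in WT.

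In subfamily I, 2 of 11 tested members (18.2%) were lower in mta and 0 higher, beside 13.1% and 13.3% of all tested genes. The median log2 fold change was -0.23. WRKY33 (AT2G38470), required for resistance to necrotrophic fungi and for camalexin synthesis, was 1 of the 2 lower members. It had 1641, 1935, 1751 and 1463 in mta 1 to mta 4, against 2283, 3289.9, 3328 and 3121 in WT 1 to WT 4. Every mta library lay below every WT library, a log2 fold change of -0.82 (SE 0.138, limma adjusted p = 0.00161). WRKY4 (AT1G13960), which acts in resistance to necrotrophs with the close copy WRKY3, had 226, 232, 244 and 224 in mta 1 to mta 4, against 241, 312, 327 and 311 in WT 1 to WT 4, a change of -0.35 (SE 0.108, limma adjusted p = 0.0335). WT 1 was the lowest WT library and lay within the mta range. The call for WRKY4 was lost without mta 2, WT 2, WT 3 or WT 4 (adjusted p of 0.0823 to 0.105), with upper-quartile factors (adjusted p = 0.0668) and with no mean-variance trend (adjusted p = 0.0525). WRKY3 (AT2G03340) had 151, 162, 159 and 213 in mta 1 to mta 4, against 161, 249, 244 and 204 in WT 1 to WT 4, and did not pass (log2 fold change -0.31, SE 0.156, limma adjusted p = 0.165). It passed without mta 4 (-0.42, adjusted p = 0.0382) and without WT 1 (-0.48, adjusted p = 0.0301).

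WRKY20 (AT4G26640) did not pass either, at 223, 236, 257 and 232 in mta 1 to mta 4, against 236, 296, 282 and 266 in WT 1 to WT 4 (log2 fold change -0.18, SE 0.0985, limma adjusted p = 0.193), though it passed without WT 1 (-0.29, adjusted p = 0.0328). WRKY25 and WRKY26, which act with WRKY33 in heat tolerance, showed no called change. WRKY25 averaged 575 ± 34.6 in mta and 572 ± 58.7 in WT (SD, n = 4 each) and WRKY26 361 ± 44.0 in mta and 429 ± 92.3 in WT. Without WT 1 the change of WRKY26 was -0.44 (adjusted p = 0.012). The remaining tested members, WRKY1, WRKY2, WRKY19, WRKY32 and WRKY44 (TTG2, a trichome and seed coat regulator), had log2 fold changes of -0.38 to -0.02 and limma adjusted p-values of 0.227 to 0.871.

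Subfamily IIb held 2 called members of 5 tested, both higher (40%, beside 13.3% of all tested genes). WRKY47 (AT4G01720) had 454, 485, 462 and 344 in mta 1 to mta 4, against 237, 281, 278 and 320.0 in WT 1 to WT 4, with all mta libraries above all WT libraries and a log2 fold change of 0.64 (SE 0.130, limma adjusted p = 0.00461). WRKY31 (AT4G22070) was a low gene at 18.4, 27.5, 19.1 and 20.9 in mta 1 to mta 4, against 8.89, 8.47, 13.8 and 12.7 in WT 1 to WT 4, again without overlap (0.92, SE 0.199, limma adjusted p = 0.00642). WRKY6, linked to senescence and to phosphate and boron supply, did not pass, at 393 ± 52.4 in mta and 395 ± 38.1 in WT (SD, n = 4 each), a log2 fold change of -0.02 (SE 0.119, limma adjusted p = 0.943). WRKY42 (AT4G04450), a regulator of phosphate transport genes, had 6.95, 7.85, 9.20 and 7.25 in mta 1 to mta 4, against 2.54, 6.44, 12.8 and 5.98 in WT 1 to WT 4. WRKY72 (AT5G15130) had 5.21, 7.33, 4.60 and 1.07 in mta 1 to mta 4, against 3.49, 3.05, 4.18 and 3.82 in WT 1 to WT 4. Both lay near the lower limit of the files, and neither passed (adjusted p = 0.546 and 0.871).

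Subfamily IIc held 4 of the 11 genes called higher in mta, 36.4% of its tested members, beside 13.3% of all tested genes. WRKY75 (AT5G13080), known from phosphate starvation, senescence and salicylic acid responses, had 92.4, 119.7, 113 and 107 in mta 1 to mta 4, against 56.8, 56.6, 60.3 and 49.5 in WT 1 to WT 4. WRKY45 (AT3G01970), its close relative, which activates a phosphate transporter gene, had 121, 104, 111 and 91.8 in mta 1 to mta 4, against 59.4, 42.3, 37.6 and 50.4 in WT 1 to WT 4. For both genes every mta library lay above every WT library, with log2 fold changes of 0.94 (SE 0.115, limma adjusted p = 0.000222) and 1.17 (SE 0.151, limma adjusted p = 0.00031). WRKY51 and WRKY50, the 2 members with the altered run shown above, mediate repression of jasmonate responses by salicylic acid. WRKY51 (AT5G64810) had 35.8, 30.1, 30.9 and 24.4 in mta 1 to mta 4, against 22.9, 16.3, 15.4 and 20.1 in WT 1 to WT 4, without overlap (0.68, SE 0.168, limma adjusted p = 0.013). WRKY50 (AT5G26170) had 12.5, 24.6, 23.0 and 26.3 in mta 1 to mta 4, against 10.2, 16.6, 10.7 and 12.7 in WT 1 to WT 4. Its mta 1 lay within the WT range, and the log2 fold change was 0.71 (SE 0.240, limma adjusted p = 0.0486). The call for WRKY50 was lost without mta 2, mta 3, mta 4, WT 1, WT 3 or WT 4 (adjusted p of 0.0785 to 0.143), with the authors' scaling (adjusted p = 0.135), with no filter (adjusted p = 0.0524) and with no mean-variance trend (adjusted p = 0.0531).

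The other 7 tested members of subfamily IIc did not pass. WRKY28 (AT4G18170), an activator of the salicylic acid synthesis gene ICS1, had 76.8, 79.3, 78.6 and 47.8 in mta 1 to mta 4, against 57.5, 52.2, 66.3 and 52.6 in WT 1 to WT 4. All mta libraries but mta 4 lay above the WT range, and without mta 4 the log2 fold change was 0.45 (adjusted p = 0.00974), against 0.28 with all libraries (adjusted p = 0.253). WRKY48, a repressor of basal defence, and WRKY13, a regulator of stem development and flowering, passed as lower without WT 1 (-0.51, adjusted p = 0.00958, and -0.45, adjusted p = 0.0473). WRKY8, WRKY12, WRKY23 and WRKY57 had log2 fold changes of -0.05 to 0.27, and none passed.

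Subfamily IId, whose proteins bind calmodulin, contained a pair of close relatives that went opposite ways. WRKY11 and WRKY17 are known as partly redundant repressors of resistance to Pseudomonas syringae. WRKY11 (AT4G31550) had 458, 371, 429 and 327 in mta 1 to mta 4, against 654, 656, 646 and 697 in WT 1 to WT 4. WRKY17 (AT2G24570) had 184, 153, 165 and 138 in mta 1 to mta 4, against 108, 99.9, 101 and 98.7 in WT 1 to WT 4. In neither gene did the genotypes overlap, and the log2 fold changes were -0.75 (SE 0.111, limma adjusted p = 0.000709) for WRKY11 and 0.64 (SE 0.106, limma adjusted p = 0.00152) for WRKY17. WRKY7 (AT4G24240), another calmodulin-binding repressor, had 43.1, 36.7, 36.2 and 31.7 in mta 1 to mta 4, against 45.7, 54.9, 56.4 and 51.9 in WT 1 to WT 4, also without overlap (-0.49, SE 0.128, limma adjusted p = 0.0159). Its call was lost without WT 2 or WT 3 (adjusted p of 0.0506 to 0.0545). WRKY21 (AT2G30590) had 129.6, 154, 149 and 141 in mta 1 to mta 4, against 126, 119.9, 102 and 120.0 in WT 1 to WT 4. These groups did not overlap, but the gene did not pass (log2 fold change 0.30, SE 0.103, limma adjusted p = 0.0559). It passed without mta 4 (0.30, adjusted p = 0.0456), with upper-quartile factors (adjusted p = 0.0335), with library weights (adjusted p = 0.00191), with the length trend removed (adjusted p = 0.0319) and without WT 1, mta 1 and mta 4 together (adjusted p = 0.00346). WRKY15 (AT2G23320) had 1483, 1375, 1486 and 919 in mta 1 to mta 4, against 1126, 1122, 1073 and 1193 in WT 1 to WT 4, and mta 4 lay below all other libraries. The change of WRKY15 did not pass (0.20, SE 0.145, limma adjusted p = 0.353), and without mta 4 it was 0.36 (adjusted p = 0.00449). WRKY39 did not pass (0.21, SE 0.104, limma adjusted p = 0.157).

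A second opposed pair stood in subfamily IIe. WRKY22 and WRKY29 are placed together downstream of the mitogen-activated protein kinase cascade that flagellin perception starts. WRKY22 (AT4G01250) had 143, 130.4, 126 and 77.6 in mta 1 to mta 4, against 226, 209, 195 and 220.4 in WT 1 to WT 4. WRKY29 (AT4G23550) had 25.4, 31.2, 25.3 and 27.4 in mta 1 to mta 4, against 17.8, 18.0, 17.2 and 16.0 in WT 1 to WT 4. The genotypes overlapped in neither, with log2 fold changes of -0.87 (SE 0.169, limma adjusted p = 0.00364) for WRKY22 and 0.63 (SE 0.129, limma adjusted p = 0.0049) for WRKY29. WRKY27 (AT5G52830), linked to symptoms of bacterial wilt, had 34.4, 34.8, 29.9 and 31.1 in mta 1 to mta 4, against 23.2, 29.8, 21.9 and 27.7 in WT 1 to WT 4, without overlap but not past the threshold (0.34, SE 0.137, limma adjusted p = 0.0908). WRKY65 (AT1G29280) had 11.8, 12.0, 17.1 and 13.7 in mta 1 to mta 4, against 26.3, 13.5, 17.0 and 18.4 in WT 1 to WT 4, overlapping (-0.41, SE 0.207, limma adjusted p = 0.169). WRKY69 and WRKY16 did not pass (adjusted p = 0.201 and 0.378), though WRKY69 passed with the authors' scaling (adjusted p = 0.0338) and WRKY16 without mta 4 (-0.44, adjusted p = 0.0245).

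Subfamily III holds the members best known from salicylic acid signalling and senescence. Of its 10 tested members, 2 (20%) were higher in mta and 0 lower, beside 13.3% and 13.1% of all tested genes. WRKY38 (AT5G22570), a repressor of basal defence that binds the histone deacetylase HDA19, had 21.5, 19.6, 19.4 and 16.9 in mta 1 to mta 4, against 9.52, 12.2, 8.62 and 12.4 in WT 1 to WT 4, without overlap (0.81, SE 0.165, limma adjusted p = 0.00473). WRKY54 (AT2G40750), which restrains senescence and salicylic acid accumulation together with WRKY70, had 132, 133, 123 and 112 in mta 1 to mta 4, against 91.1, 99.9, 92.2 and 102 in WT 1 to WT 4. The genotypes did not overlap and the log2 fold change was 0.37 (SE 0.0989, limma adjusted p = 0.0184). It was lost without mta 1, mta 2, mta 3 or WT 3 (adjusted p of 0.0542 to 0.0667), and with the authors' scaling it was 0.23 (adjusted p = 0.106). WRKY70 (AT3G56400) had 559, 516, 503 and 523 in mta 1 to mta 4, against 522, 509, 511 and 488 in WT 1 to WT 4. These ranges overlapped, with a log2 fold change of 0.05 (SE 0.0799, limma adjusted p = 0.684). WRKY53 (AT4G23810), an activator of leaf senescence, had 640.3, 749, 717 and 669 in mta 1 to mta 4, against 773, 844, 818 and 798 in WT 1 to WT 4. Every mta library lay below every WT library, yet the change of -0.22 (SE 0.0857, limma adjusted p = 0.0786) did not pass. It passed without WT 1 (-0.28, adjusted p = 0.0323) and with the authors' scaling (-0.37, adjusted p = 0.0183).

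WRKY46 (AT2G46400), which acts in basal defence and osmotic stress, had 92.1, 127, 96.3 and 212 in mta 1 to mta 4, against 163, 211, 194 and 159 in WT 1 to WT 4. The libraries mta 1 to mta 3 lay below all WT libraries, and mta 4 lay just above the highest of them. Its log2 fold change did not pass with all libraries (-0.53, SE 0.229, limma adjusted p = 0.111) and was -0.79 without mta 4 (adjusted p = 0.00154). WRKY62, which acts with WRKY38, averaged 11.0 ± 1.71 in mta and 7.09 ± 2.97 in WT (SD, n = 4 each) and did not pass (0.64, SE 0.276, limma adjusted p = 0.11). WRKY41 (AT4G11070) had 13.5, 20.4, 19.4 and 11.8 in mta 1 to mta 4, against 8.89, 11.5, 13.3 and 10.3 in WT 1 to WT 4, a change of 0.51 (SE 0.207, limma adjusted p = 0.0951), and passed without mta 4 (0.64, adjusted p = 0.0268). WRKY30 averaged 76.3 ± 6.70 in mta and 62.7 ± 6.49 in WT, without overlap but not past the threshold (0.28, SE 0.115, limma adjusted p = 0.0956). WRKY54 and WRKY55 are neighbours on chromosome 2 (chr2:17000419-17002528, minus strand, and chr2:16997078-16999499, plus strand, TAIR10.1). WRKY55 and WRKY52 had log2 fold changes of -0.08 and -0.19 (adjusted p = 0.773 and 0.611).

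**Figure D3:**
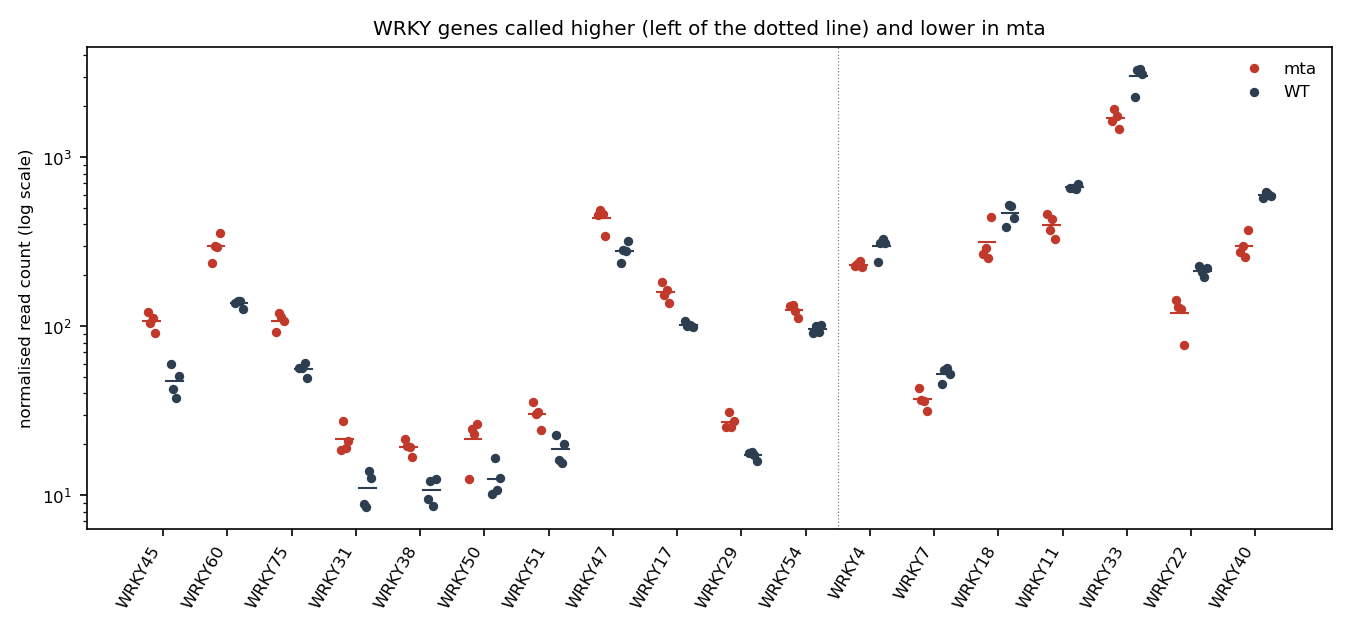
Normalised read count (log axis) in each of the 4 mta and 4 WT libraries for the 11 WRKY genes called higher (left of the dotted line) and the 7 called lower in mta; bars are group means. The genotypes overlap for WRKY50, WRKY4 and WRKY18.

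The members with the longest transcripts differed widely between libraries of 1 genotype. WRKY16, WRKY19 and WRKY52 code for immune receptors of the nucleotide-binding leucine-rich repeat type fused to a WRKY domain, and their transcripts were annotated at 4389, 6420 and 5674 bases, the longest of the 52. WRKY19 (AT4G12020) had 49.0, 69.1, 64.1 and 142 in mta 1 to mta 4, against 47.0, 125, 128 and 91.3 in WT 1 to WT 4. WRKY52 (AT5G45260) had 73.3, 97.1, 89.4 and 154 in mta 1 to mta 4, against 75.5, 148, 135 and 109.7 in WT 1 to WT 4. WRKY16 (AT5G45050) had 96.9, 97.7, 102 and 171 in mta 1 to mta 4, against 108, 158, 155 and 125 in WT 1 to WT 4. In all 3 genes mta 4 was the highest mta library and WT 1 the lowest WT library, and no gene of the 3 passed with all libraries. Without WT 1, mta 1 and mta 4 together all 3 passed as lower, at -0.75 for WRKY19 (adjusted p = 0.000777), -0.46 for WRKY52 (adjusted p = 0.00734) and -0.52 for WRKY16 (adjusted p = 0.00198). Those libraries had the largest scores in size on the second principal component (31.4 for WT 1, 29.5 for mta 1 and -45.5 for mta 4). Leaving them out removed the lowest WT library and the lowest and highest mta libraries of each gene. That fit therefore cannot decide whether the 3 genes were lower. With library weights the 3 genes passed too (adjusted p of 0.00166 to 0.00802). Passing was common in both fits, with 52.9% of all tested genes called with library weights and 46.4% without those libraries. With the trend along transcript length removed from each library, the log2 fold changes were -0.13 for WRKY19, -0.04 for WRKY52 and -0.12 for WRKY16 (adjusted p of 0.359 to 0.737). Over the 52 tested members, mta 4 was the highest mta library for 14 and the lowest for 22, and WT 1 was the highest WT library for 9 and the lowest for 28. Under that length correction 11 members were higher and 7 lower, with WRKY21 called (adjusted p = 0.0319) and WRKY50 not (adjusted p = 0.0577). Beside these, 2967 of all 18328 genes were higher and 3060 lower, so 32.9% were called in that fit, against 26.4% in the main fit.

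**Figure D4:**
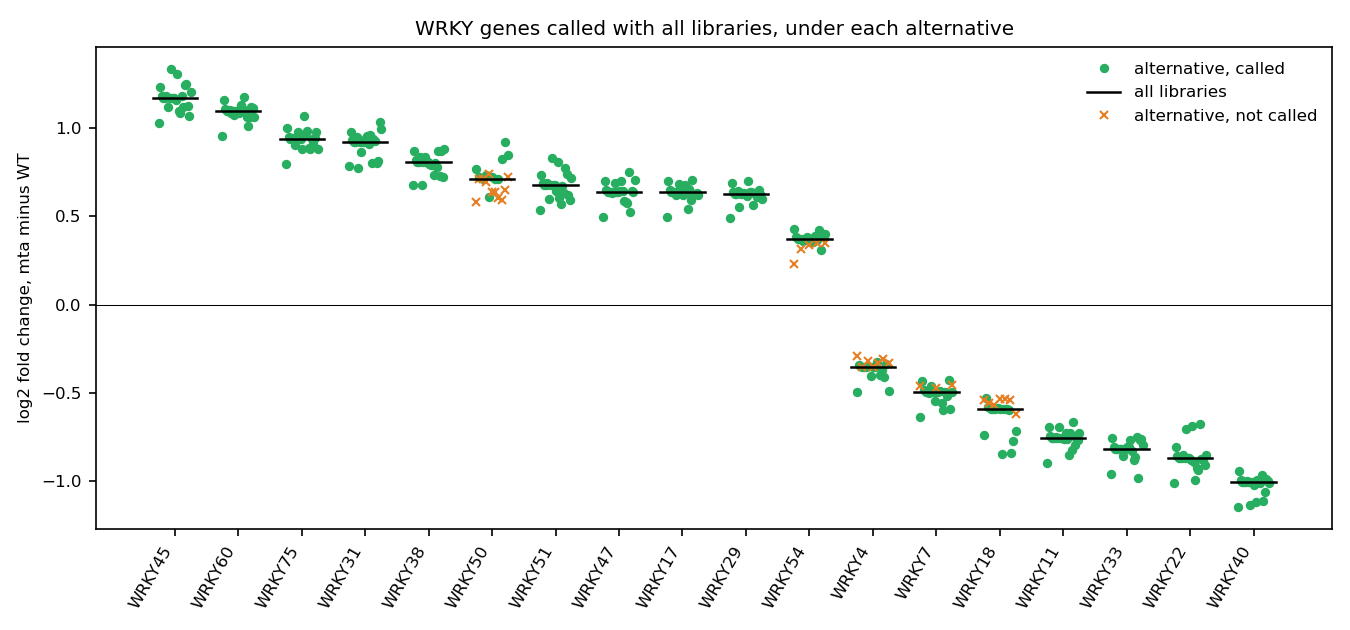
Log2 fold change (mta minus WT) of the 18 called WRKY genes with all libraries (black bars) and under each of 22 alternative settings (green circles where still called, orange crosses where not). No value crosses 0, and crosses appear for WRKY50, WRKY54, WRKY4, WRKY7 and WRKY18.

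Promoter W boxes were found among members of each kind. Matches stood in the 250 bases before the start in 4 of 11 members higher in mta, 2 of 7 lower and 15 of 34 not called. Among the opposed pairs, both WRKY11 and WRKY17 held matches (1 and 2) in these windows, whereas WRKY22 held 0 and WRKY29 held 2. The 3 subfamily IIa genes held none in this window. At least 2 matches stood in 3 members higher in mta (WRKY17, WRKY29 and WRKY45) and 1 lower (WRKY33). They also stood in 6 members not called (WRKY15, WRKY30, WRKY32, WRKY41, WRKY53 and WRKY62). Of the members named here with at least 2 matches, only WRKY45 has a window that overlaps an exon of another gene.

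Genes that act with the WRKY proteins were described from 3 short lists. Of 13 kinases upstream of WRKY proteins, 3 were lower in mta and 0 higher, beside 13.1% of all genes lower and 13.3% higher, with a median log2 fold change of -0.18. The number lower was 6 with the authors' scaling, where MEKK1, MKK2 and CPK11 joined them (adjusted p of 0.0411 to 0.0423), 6 with library weights (3 higher), 6 without WT 1, mta 1 and mta 4 together (1 higher) and 5 without WT 1. The number lower over all genes rose in these fits as well, from the 2406 behind the 13.1% above. It was 4249, 5130, 4407 and 2800 in the same order, of 17880 to 18328 tested. MPK3, whose product phosphorylates WRKY33, had 1792, 1724, 1638 and 2029 in mta 1 to mta 4, against 2149, 2514, 2528 and 2357 in WT 1 to WT 4, without overlap (-0.41, SE 0.0998, limma adjusted p = 0.0116). The calcium-dependent kinase gene CPK5 had 733, 837, 771 and 1010.4 in mta 1 to mta 4, against 1108, 1216, 1226 and 1159.7 in WT 1 to WT 4, also without overlap (-0.50, SE 0.109, limma adjusted p = 0.00664). Its product phosphorylates WRKY33 too. CPK4 had 98.0, 111, 102 and 126 in mta 1 to mta 4, against 149, 168, 164 and 138 in WT 1 to WT 4, again without overlap (-0.50, SE 0.111, limma adjusted p = 0.00732). CPK6 had 190.0, 212, 192 and 281 in mta 1 to mta 4, against 252, 295, 276 and 251 in WT 1 to WT 4, and did not pass (-0.31, SE 0.130, limma adjusted p = 0.103). It passed without mta 4 (-0.44, adjusted p = 0.00404), with library weights (adjusted p = 0.000502), with the length trend removed (adjusted p = 0.0466) and without WT 1, mta 1 and mta 4 together (adjusted p = 0.00174). MPK4 averaged 174 ± 15.8 in mta and 149.9 ± 8.33 in WT and MPK6 361 ± 49.9 in mta and 370.0 ± 18.4 in WT, and neither passed (adjusted p = 0.132 and 0.797).

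Of 9 genes for partners that bind WRKY proteins or act on them, 3 were higher in mta and 0 lower, beside 13.3% and 13.1% of all tested genes. Scaled as by the authors, 1 was higher and 3 lower, namely MKS1, SIB1 and NPR1 (adjusted p = 0.0111, 0.00578 and 0.00617). Under that scaling 1671 of all 18328 genes were higher and 4249 lower. The same counts of 1 higher and 3 lower were found without mta 1, beside 1879 and 2578 of all 18184 genes. Again 3 were lower with library weights and without WT 1, mta 1 and mta 4 together, beside 5130 and 4407 of all genes lower. In both fits SIB2, VQ9 and VQ10 kept their calls as higher, and JAV1 joined them (adjusted p = 0.000809 and 0.00103). Beside these, 4560 and 3885 of all genes were higher. With all libraries JAV1 did not pass (0.41, limma adjusted p = 0.116), and it passed as higher without mta 4 (adjusted p = 0.00224). SIB2, a VQ-motif coactivator of WRKY33, had 364, 348, 365 and 285 in mta 1 to mta 4, against 197, 179, 185 and 208 in WT 1 to WT 4, without overlap (0.82, SE 0.105, limma adjusted p = 0.000314). Its relative SIB1 averaged 524 ± 91.1 in mta and 629 ± 40.1 in WT (SD, n = 4 each) and did not pass (-0.28, SE 0.123, limma adjusted p = 0.121), though without mta 1 the change was -0.41 (adjusted p = 0.0177) and with the authors' scaling -0.42 (adjusted p = 0.00578). The VQ-motif proteins VQ9 and VQ10 bind WRKY8. VQ9 had 125, 100.02, 122 and 84.3 in mta 1 to mta 4, against 79.4, 66.4, 72.4 and 89.6 in WT 1 to WT 4, and VQ10 had 131, 103, 111 and 89.6 in mta 1 to mta 4, against 93.0, 78.9, 69.5 and 75.5 in WT 1 to WT 4. The genotypes overlapped for both, with changes of 0.47 (SE 0.146, limma adjusted p = 0.0355) for VQ9 and 0.45 (SE 0.136, limma adjusted p = 0.0325) for VQ10. Both calls were lost without mta 1, mta 2, mta 3, WT 2 or WT 3, that of VQ9 also without WT 1 and that of VQ10 also without WT 4 (adjusted p of 0.0567 to 0.12 for VQ9 and 0.0678 to 0.0973 for VQ10), and with the authors' scaling (adjusted p = 0.0649 for VQ9 and 0.0538 for VQ10). NPR1, the salicylic acid receptor and a regulator of several WRKY genes, had 482, 506, 494 and 420.0 in mta 1 to mta 4, against 544, 576, 571 and 571 in WT 1 to WT 4. It was lower in each mta library than in any WT library but did not pass (-0.25, SE 0.0880, limma adjusted p = 0.0547), and it passed without mta 1 (-0.29, adjusted p = 0.0481) and without WT 1 (-0.31, adjusted p = 0.0206). HDA19 averaged 634 ± 46.9 in mta and 633 ± 29.2 in WT and did not pass (0.00, SE 0.0883, limma adjusted p = 0.993).

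Of the 12 target genes tested, 4 were higher in mta, 3 were lower and 5 were not called, beside 13.3% of all tested genes higher and 13.1% lower. The median log2 fold change of these targets was 0.06. The camalexin genes PAD3 and CYP71A13, activated by WRKY33, were higher while WRKY33 was lower. PAD3 had 704, 577, 647 and 548 in mta 1 to mta 4, against 158, 154, 146 and 162 in WT 1 to WT 4, and CYP71A13 had 600.0, 611, 652 and 514 in mta 1 to mta 4, against 188, 161, 163 and 188 in WT 1 to WT 4, with changes of 1.98 (SE 0.0995, limma adjusted p = 5.37e-07) and 1.76 (SE 0.104, limma adjusted p = 1.87e-06). The ethylene synthesis gene ACS6, also bound by WRKY33, was lower without overlap, averaging 197 ± 16.8 in mta and 398 ± 10.9 in WT (-1.01, SE 0.0904, limma adjusted p = 2.82e-05), and ACS2 did not pass (0.13, SE 0.116, limma adjusted p = 0.456). RRTF1, an ethylene response factor gene that WRKY40 represses, was lower at 139, 153, 151 and 165 in mta 1 to mta 4, against 366, 369.9, 345 and 344 in WT 1 to WT 4, beside lower WRKY40 (-1.23, SE 0.0885, limma adjusted p = 6.99e-06). ICS1, the target of WRKY28, averaged 534 ± 16.9 in mta and 385 ± 24.4 in WT (SD, n = 4 each), a change of 0.47 (SE 0.0838, limma adjusted p = 0.00206). SAG12, a senescence gene and target of WRKY53, had 10.4, 4.71, 4.93 and 8.86 in mta 1 to mta 4, against 75.2, 71.5, 63.5 and 59.3 in WT 1 to WT 4, a change of -3.11 (SE 0.227, limma adjusted p = 7.33e-06). All mta libraries were far below the WT libraries. The pathogenesis gene PR1 averaged 7681 ± 949 in mta and 2594 ± 221 in WT, a change of 1.56 (SE 0.117, limma adjusted p = 8.52e-06). EDS1, FRK1, JAZ8 and PHO1 did not pass, though PHO1 passed without WT 1 (adjusted p = 0.0177). The phosphate transporter gene PHT1;1, the target of WRKY45, was listed in 1 mta and 1 WT library and was not tested.

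**Figure D5:**
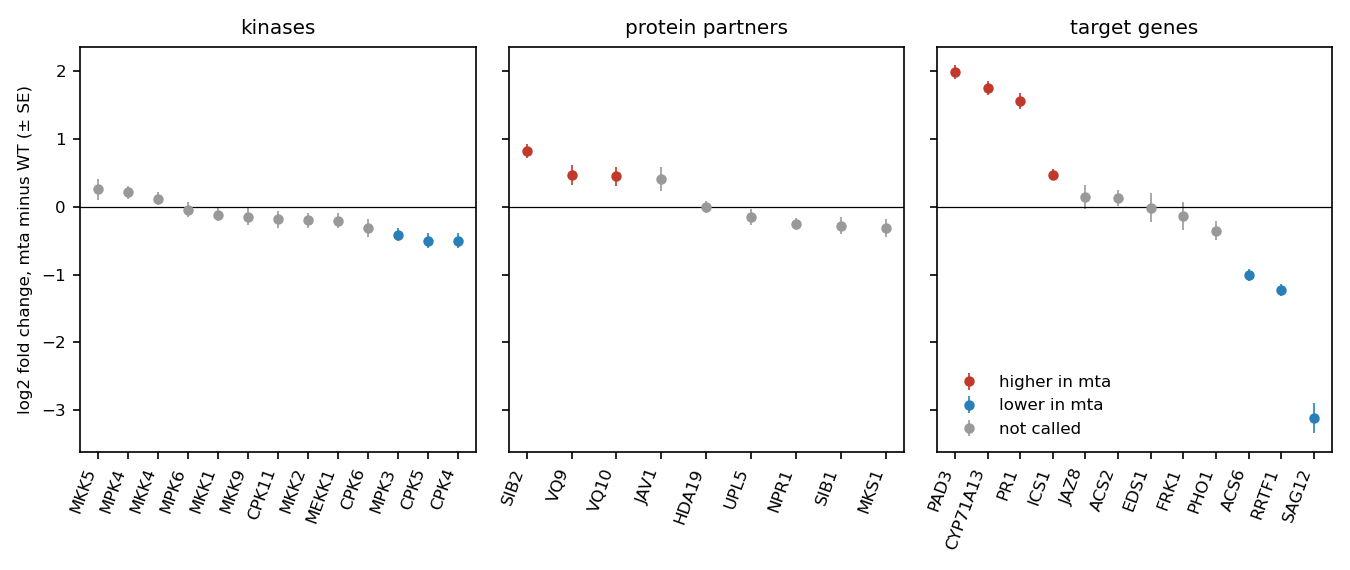
Log2 fold change (mta minus WT, ± SE, n = 4 libraries per genotype) of the tested genes for kinases upstream of WRKY proteins, for protein partners and for target genes. Called genes are coloured; 3 kinases are lower, 3 partners higher, and the targets are split, whereas with the authors' scaling 6 kinases were lower, and 1 partner was higher and 3 were lower.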

How the data were processed

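Poly(A) RNA from leaves was sequenced in 4 ABI3:MTA and 4 WT libraries. The authors deposited 1 table per library, a signal per gene normalised across libraries and so treated as normalised values, with genes below 1 left out. Per the submitters' processing notes, STAR 2.4.0, HTSeq, DESeq2 and TAIR10 were used; their order and settings are not given in the sources used here. The rows for reads outside genes (4.92 to 5.97% of a library), ambiguous reads (0.359 to 0.406%) and reads with several alignments (6.06 to 9.07%) were left out. Unlisted genes were set to 0, and factors from trimmed means of M values (trims of 0.3 and 0.05 on all genes, 0.883 to 1.08) were applied. Genes with a deposited value of 3 or more in 4 or more libraries were tested on log2(value + 1) in R 4.3.3 using limma 3.58.1, whose variance prior followed the mean level, and p-values were adjusted over all genes tested (Benjamini-Hochberg, threshold 0.05). Fold changes are on that log scale, which understates those of low genes. The script was tested on simulated data. Depth sets the precision of low genes, and no interval for counting error was computed from normalised values.

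Members are the 60 listed WRKY identifiers, and every member may be named. Values in every library are given for the members of each subfamily and the genes of each list that ranked 1 to 4 by adjusted p, and for WRKY18, WRKY33, WRKY40, WRKY46, WRKY53, WRKY54, WRKY60 and WRKY70. WRKY15, WRKY16, WRKY19, WRKY28 and WRKY52 were added after their values were seen. Members, lists and tests were chosen with earlier results of these data known. Lengths (the annotated transcript), promoters and coding bases came from RefSeq's TAIR10.1 and its own annotation, found by gene identifier. Figures were drawn with matplotlib 3.10.9. Alternatives covered scaling, filter, pseudocount, variance model, library weights, organelle genes, transcript length, a replicate block and libraries left out. Same-numbered libraries did not deviate together in every pair, so no pairing was assumed.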

Additional observations from a re-analysis of the deposited data

Results flagged for a closer look

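In 4 of the 104 groups of WRKY values examined (52 members in each genotype), 1 library lay farther from the other 3 than the critical value of Dixon's test allows, and chance alone flags about 5% of groups. All 4 were mta 4. WRKY3 had 212.5 normalised counts in mta 4, against 151.5 to 161.5 in the other mta libraries. WRKY44 had 9.93, against 5.92 to 6.60. WRKY16 had 171.2, against 96.9 to 102.2. WRKY28 had 47.8 and lay below the others, which had 76.8 to 79.3. The cause was not tested.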

How the results depend on the processing

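The counts of called WRKY genes, 11 higher and 7 lower in mta beside 4842 of all genes, moved most with the libraries. With library weights, 18 were higher and 18 lower and 9690 genes were called. Without WT 1, mta 1 and mta 4 together, 17 were higher, 16 lower (of 51 tested) and 8292 genes called. With WT 2 and WT 3 averaged as 1 sample, 4 were lower, beside 1720 of all genes. Leaving out each library in turn gave 9 to 14 higher, 4 to 13 lower and 3192 to 6543 genes called; the lowest total was without mta 2 and the highest without mta 4. The cause was not tested. Under the scaling of the authors alone, 9 WRKY genes were higher and 9 lower, beside 1671 and 4249 of all genes. The median of all genes was -0.16 in place of -0.02, and that of the WRKY genes -0.14 in place of -0.00. No named gene changed sign among its called values. Same-numbered libraries had correlations of deviations of 0.47, 0.08, -0.20 and -0.35 (numbers 1 to 4). Libraries of unlike number reached 0.45 (mta 4 with WT 2). Such values cannot settle whether the numbers pair the libraries, and no pairing was assumed. With a replicate block 11 WRKY genes were higher and 7 lower, 4516 genes were called, and the call of VQ9 was lost (adjusted p = 0.0512). The planned count tests were not run, since the values are normalised. Low members such as WRKY72 are limited by depth.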
